A study of Mus musculus with 20 samples.

Results

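The genes described here were grouped by symbol under the TGF-beta, BMP, Wnt and Notch signalling systems. A symbol does not always give the role: Bmp1, Jagn1, Ctnna1 and Ctnnd1 encode proteins of other kinds, as described below. A gene was included when the platform annotation gave it as the only symbol of a probe set and that symbol began with Tgfb, Bmp, Smad, Wnt, Fzd, Inhb, Acvr, Ltbp, Tgif, Sfrp, Dvl, Ctnn, Tcf7, Axin, Notch or Jag. This gave 73 genes of the 6137 with such a probe set: 36 of TGF-beta and BMP signalling, 32 of Wnt signalling and 5 with a Notch or Jag symbol. Each gene was read from its probe set with the highest mean, 48 of them on array A and 25 on array B.

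The cells were 3T3-L1, a mouse fibroblast line that turns into fat-storing adipocytes after hormonal induction. Per the labels, all cultures followed the MDI protocol, which usually combines insulin, dexamethasone and isobutylmethylxanthine, and no untreated cultures of matching age were among the samples. RNA from 10 time points was hybridised to 2 Affymetrix array types, with 1 sample of each time point on each. They were grouped into late (days 4, 7 and 28 after induction), middle (days 2 and 3), early (6, 12 and 24 hours) and before induction (preconfluent and confluent cells).

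TGF-beta, the activins (dimers of inhibin beta subunits) and the bone morphogenetic proteins bind paired serine-threonine kinase receptors that phosphorylate Smad proteins, which enter the nucleus with Smad4. Wnt proteins bind Frizzled receptors, act through Dishevelled and spare beta-catenin from a degradation complex built on Axin, so that it can pair with TCF and LEF factors on DNA. Notch is a receptor cut after it meets a ligand on a neighbouring cell, and its released tail acts with Rbpj. In preadipocyte cultures, Wnt signalling, TGF-beta and activin A are known to hold back fat cell formation, and BMP4 is known to favour it.

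Values are linear intensities scaled by the authors, which go below 0. Values below a floor of 136 on array A or 156 on array B were set to it before log2 was taken, and a probe set was tested when 2 or more samples passed 182 (array A) or 156 (array B). Trimmed means lay between 500.9 and 501.1 on all 20 arrays, and between 43.4% and 55.4% of the values of an array lay at or below the floor. All 8 adipocyte markers measured rose in late cells against those before induction, and their summed intensity was 101950 to 125320 in late cells and 3018 to 10736 before induction. The summed intensity of 8 preadipocyte or fibroblast markers was 29003 to 52113 in late cells and 57852 to 75565 before induction, and 3 of the 8 fell. Macrophage markers summed to 3324 to 5253 in late cells and 5546 to 5635 before induction, with Adgre1, C1qa and Csf1r below the floor in every sample. Cd14 fell, with 1190, 1000 and 1370 in late cells, against 2070 and 2470 before induction (adjusted p = 0.0391, limma). C1qb lay between 445 and 897, Cd68 between 70 and 421, Lyz2 between 140 and 1650 and Ptprc between 1000 and 1720. None of these passed a test between stages. The 5 endothelial markers summed to 538 to 942 in late cells and 1020 to 1044 before induction; Pecam1, Cdh5 and Tie1 stayed below the floor in every sample, Kdr lay between 538 and 1010 and Tek between -78 and 262, and neither of the last passed a test between stages. The part these shifts had in the changes below was not tested. In RNA from whole cultures, fewer cells of a type and less RNA per cell cannot be told apart.

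Of the 73 genes, 42 passed the filter and 31 did not. The tested genes were 19 of TGF-beta and BMP signalling, 18 of Wnt signalling and all 5 Notch or Jag genes. The intensity was at or below the floor in all 10 samples for 23 genes and above it in all 10 for 16. Among the genes not tested were the TGF-beta receptors Tgfbr1 and Tgfbr2, the activin receptors Acvr1, Acvr1b and Acvr2b, the BMP receptors Bmpr1b and Bmpr2, Smad1, Smad3 and Smad5, which carry the receptor signal, and the ligands Tgfb2, Bmp2, Bmp5, Bmp8b, Inhbb and Inhbe. Bmp2k, which encodes a kinase, was also in this group. On the Wnt side these were Wnt3a, Wnt5a, Wnt5b, Wnt6, Wnt7a, Wnt7b, Wnt8a and Wnt11, the receptors Fzd3, Fzd4 and Fzd6, the secreted antagonist Sfrp1, the neural alpha-catenin Ctnna2 and the beta-catenin inhibitor Ctnnbip1. For 24 of the 31 no sample passed the limit, and for 7 exactly 1 did; 6 genes (Acvr1, Bmp5, Smad3, Wnt3a, Wnt6 and Wnt8a) had a value below 0 in every sample. The RNA of those 24 was not detectable on these probe sets, which does not show that it was absent.

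Late against before induction, 7 of the 42 tested genes fell and 1 rose. That is 16.7% lower and 2.38% higher, against 5.08% lower and 5.82% higher among all 7582 probe sets tested (percent called by limma at an adjusted p under 0.05). Tgfb1i1, Bmp1, Inhba, Ctnnb1, Notch2, Dvl2 and Ctnna1 fell, and Jagn1 rose. Dvl2 met the filter only through the 2 samples before induction, where it was high, so its fall was fixed once it was tested. With a filter of 5 samples, 5 genes were called lower and 1 higher, with 782 probe sets called in all, against 826 under the main filter. The median log2 change of the 42 was -0.50, against -0.05 over all probe sets tested, and 32 changes were negative and 10 positive. At an unadjusted p under 0.05, 11 were lower and 1 higher, against 13.9% and 11.2% of all probe sets. The stages did not overlap for 13 genes that were lower late (31.0%, against 21.4% of all probe sets) and 3 that were higher (7.14%, against 15.8%). Leaving out the preconfluent or the confluent sample leaves 1 sample before induction. Fewer genes were then called lower, and fewer probe sets were called in all. The highest of the 10 values lay before induction for 19 of the 42 genes (45.2%, against 25.7% of all probe sets tested), and the lowest lay on day 4, 7 or 28 for 24 (57.1%, against 41.8%).

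**Figure D1:**
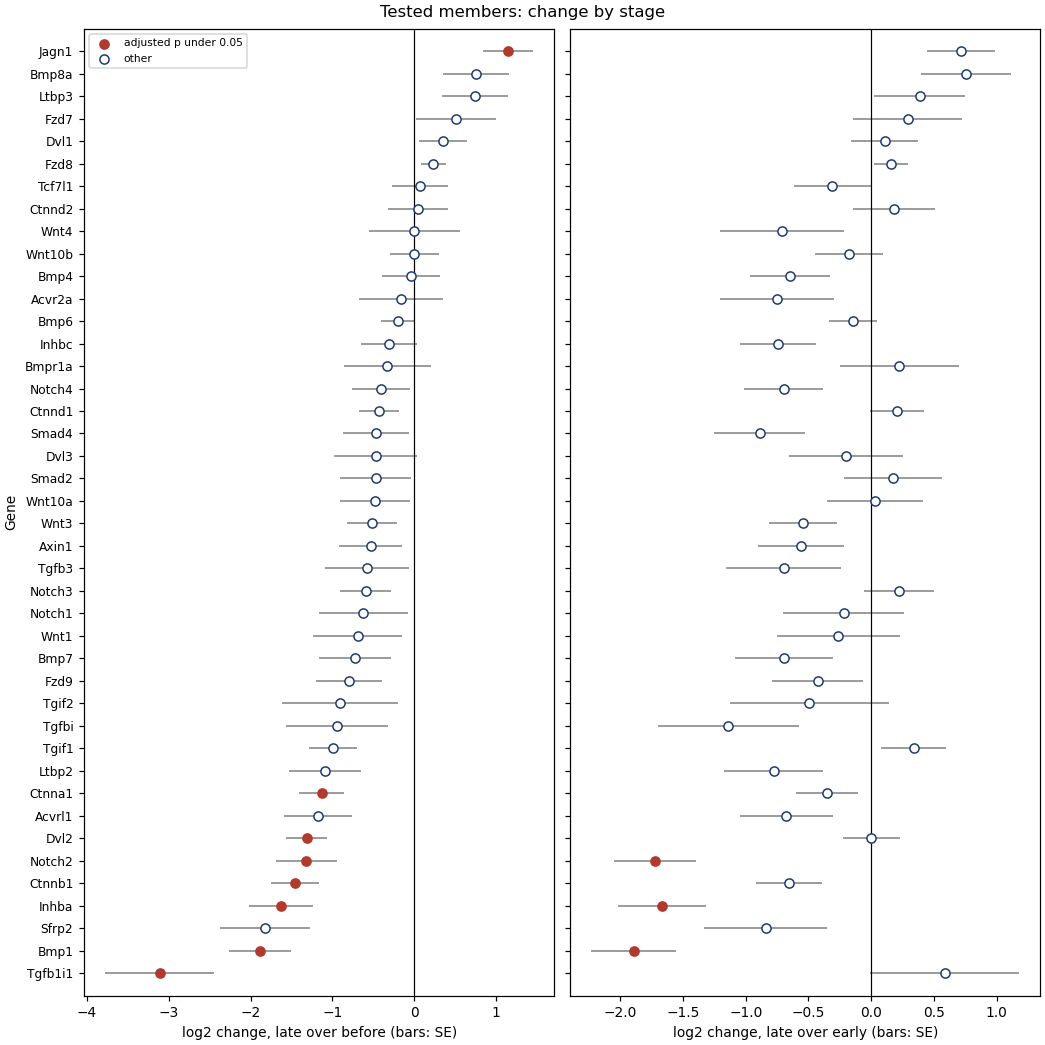
Log2 change of the 42 tested genes in late cells over cells before induction (left) and late over early cells (right), with standard errors as bars and genes passing an adjusted p under 0.05 as filled points. Of the filled points on the left, 7 lie below 0 and 1, Jagn1, above it.

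Between the early hours and the time before induction, 1 of the 42 genes fell, Tgfb1i1, and none rose. The percent called among all probe sets was 0.158% lower and 0.198% higher. At an unadjusted p under 0.05, 7 of the 42 were lower and 0 higher, against 5.22% and 4.01% of all probe sets. The median log2 change was -0.01, against 0.00 over all probe sets. The stages did not overlap for 7 genes that were lower early (12.8% of all probe sets) and 2 that were higher (9.46% of all probe sets), Jagn1 and Smad4. Late against early, 3 of the 42 fell (7.14%, against 6.55% of all probe sets) and none rose (7.16% of all probe sets): Bmp1, Inhba and Notch2. At an unadjusted p under 0.05, 7 were lower and 1 higher late against early, where all probe sets gave 14.8% and 13.1%. The stages did not overlap for 9 genes lower late and 1 higher, against 16.1% and 14.5% of all probe sets. The median log2 change was -0.33, against -0.05 over all probe sets. A smooth change along the 10 time points was called for 11 of the 42 (26.2%, against 16.8% of all probe sets): Bmp1, Bmp8a, Ctnnb1, Dvl2, Inhba, Jagn1, Ltbp2, Notch2, Sfrp2, Tgfb1i1 and Tgfbi. At an unadjusted p under 0.05 it was 19 of the 42, against 32.3% of all probe sets. Of the 11, Bmp8a and Dvl2 met the filter only through samples where they were high. With a filter of 5 samples 9 genes were called, and 1189 probe sets in all, against 1274 under the main filter. In all, 12 genes passed at least 1 of the 4 tests.

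**Figure D2:**
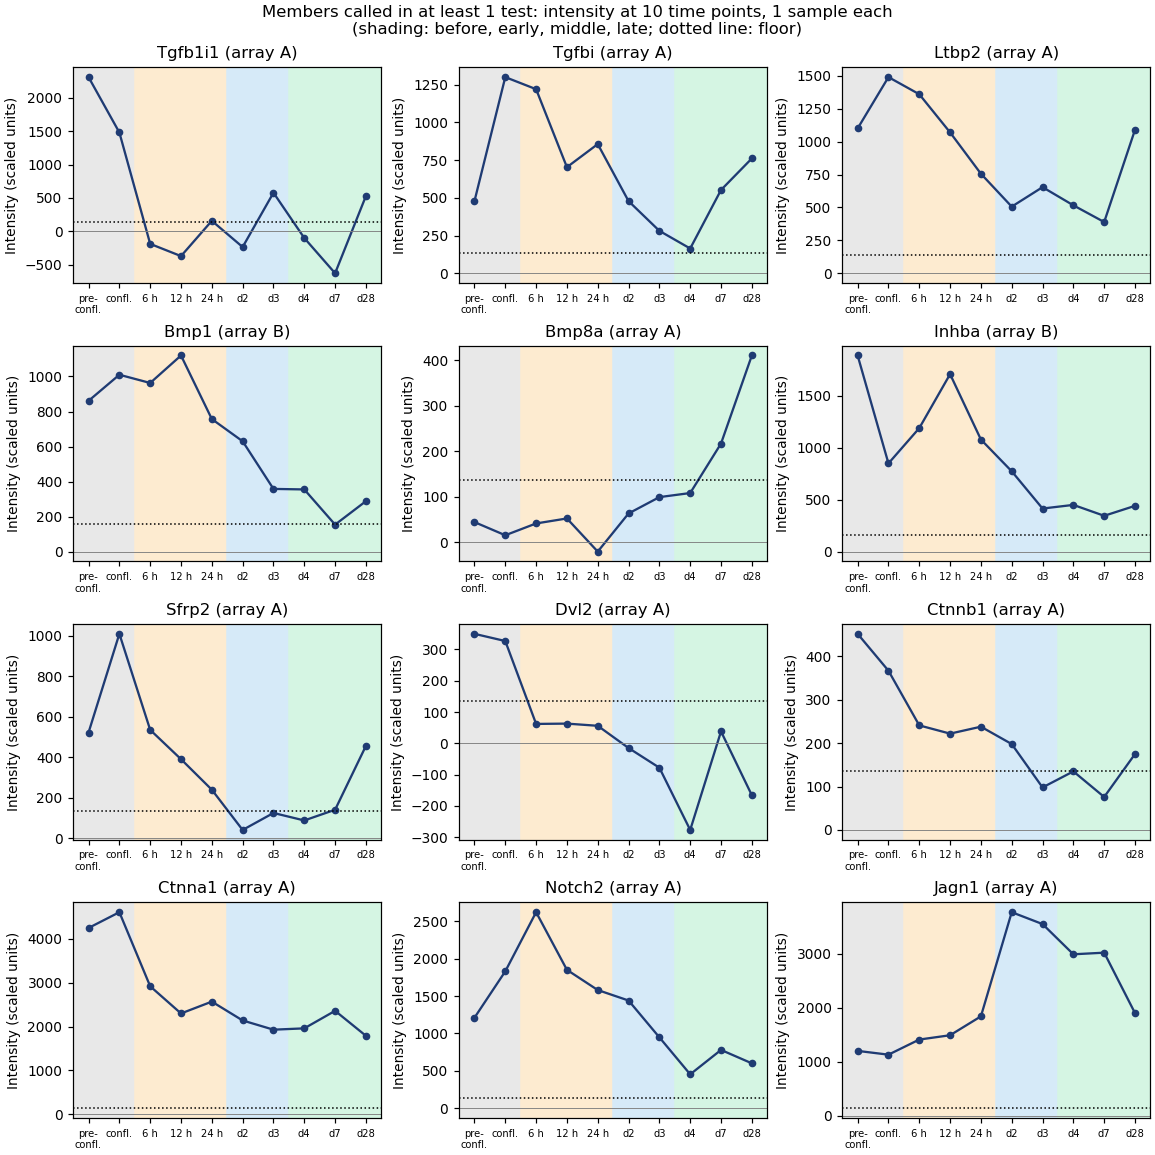
Intensity of the 12 genes that passed at least 1 test at each of the 10 time points, 1 point per sample, with the floor of the array type as a dotted line and the 4 stages shaded. Jagn1 and Bmp8a have higher values on the later days, and the other 10 genes were highest before induction or in the first hours.

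The ligand subunit that fell was Inhba, which encodes the beta A subunit of activin A. Its intensity was 1890 and 850 in preconfluent and confluent cells, 1190, 1710 and 1080 at 6, 12 and 24 hours, 774 and 415 on days 2 and 3, and 450, 345 and 441 on days 4, 7 and 28. All 3 late values lay below every early value and every value before induction. Inhba averaged 412 ± 58.2 in late cells (SD, n = 3) and 1370 ± 735 before induction (SD, n = 2). The late level was 3.10-fold lower than before induction (log2 change -1.63 ± 0.39 SE, adjusted p = 0.0332, limma) and 3.18-fold lower than in the early hours (log2 change -1.67 ± 0.35 SE, adjusted p = 0.0172). Without the preconfluent sample the first difference was -1.06 on the log2 scale (adjusted p = 0.211), and the call was lost in 7 of 16 alternatives. The call against the early hours was lost without 12 hours (0.0697), without day 7 (0.0626) and with no filter (0.0763). Its trend (adjusted p = 0.0226) was lost in 6 of 17 alternatives. Inhbc, another inhibin subunit gene, had 377, 366 and 310 in late cells, against 475, 804 and 526 in early cells (log2 change -0.74, adjusted p = 0.154, limma), with no overlap. Another tested Inhbc probe set gave a log2 change of -0.12 late against early (adjusted p = 0.689). The Inhbc probe sets differed in sign early against before. Inhbb, the activin B subunit, was not tested and had 844 on day 28, against at most 96 in the other samples.

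Bmp1, despite its name, encodes a metalloproteinase that removes the C-terminal propeptides of procollagens. Its intensity was 861 and 1010 in preconfluent and confluent cells, 963, 1120 and 757 at 6, 12 and 24 hours, 630 and 358 on days 2 and 3, and 355, 154 and 288 on days 4, 7 and 28. The fall came after the first day, and the late values did not overlap either earlier stage. Bmp1 was at least 3.51-fold lower late than before induction (log2 change -1.89 ± 0.38 SE, adjusted p = 0.0155, limma) and at least 3.55-fold lower late than early (log2 change -1.89 ± 0.34 SE, adjusted p = 0.00886). Between the early hours and the time before induction its log2 change was 0.00. A second probe set gave log2 changes of -1.55 late against before (adjusted p = 0.021) and -2.07 late against early (adjusted p = 0.003). Leaving out the preconfluent or the confluent sample ended the call against the time before induction (adjusted p = 0.0828 and 0.0914), and the call against the early hours held in all 17 alternatives (adjusted p 0.00335 to 0.048).

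The BMP ligands proper were dim. Bmp8a had 108, 217 and 411 on days 4, 7 and 28, against 44 and 15 in preconfluent and confluent cells, and passed only the test along the whole course (adjusted p = 0.0205). It met the filter only through days 7 and 28, where it was high, and the other 8 values lay below the floor. The call rests on day 28, without which the adjusted p was 0.479. Bmp4 lay between 126 and 330, Bmp6 between 144 and 238, and Bmp7 between -279 and 424, and none of these passed a test. Bmp6 lay close to the floor in all samples, so that a fall of any size could hardly be measured in it. Bmp4 had 241 and 330 at 6 and 12 hours and at most 179 in the other samples. Bmp7 had 424 in confluent cells and 297 and 346 at 12 and 24 hours, and at most 82, below the floor, in the other samples.

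Tgfb1i1 (Hic-5), a focal adhesion protein named for its induction by TGF-beta, was the only gene of the symbol rule called early against before induction. Its intensity was 2310 and 1480 in preconfluent and confluent cells, -190, -373 and 156 at 6, 12 and 24 hours, -237 and 577 on days 2 and 3, and -102, -630 and 528 on days 4, 7 and 28. Neither value before induction was met in any later sample. Such an early drop was also seen elsewhere. Ctnna1, Ctnnb1, Ctnnd1, Dvl2, Notch3 and Tgif1 had every early value below both values before induction, without being called in that test. Tgfb1i1 was at least 13.0-fold lower early than before induction (log2 change -3.70 ± 0.66 SE, adjusted p = 0.0462, limma) and at least 7.11-fold lower late than before (log2 change -3.11 ± 0.66 SE, adjusted p = 0.0131). The early call was lost in 10 of 15 alternatives (adjusted p 0.0301 to 0.427). The late call was lost without the preconfluent sample (0.118), without the confluent one (0.0551), with arcsinh in place of a floor (0.139) and with no filter (0.114). Its trend (adjusted p = 0.0375) was lost in 8 of 16.

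Tgfbi, a secreted matrix protein induced by TGF-beta, changed along the course (adjusted p = 0.027, limma). It had 478 and 1300 in preconfluent and confluent cells, 1220, 703 and 856 at 6, 12 and 24 hours, 478 and 281 on days 2 and 3, and 164, 552 and 761 on days 4, 7 and 28. The lowest value was on day 4, and the late values overlapped those before induction (log2 change -0.94 ± 0.63 SE, adjusted p = 0.392). Ltbp2, a microfibril protein of the latent TGF-beta binding family, showed a similar course: 1100 and 1490 in preconfluent and confluent cells, 1360, 1070 and 756 in the first 24 hours, 506 and 654 on days 2 and 3, and 516, 389 and 1090 on days 4, 7 and 28. Its trend had an adjusted p of 0.0479 and was lost in 12 of 17 alternatives, that of Tgfbi in 8 of 17. Ltbp3, which aids the secretion of latent TGF-beta, had 957, 992 and 1600 in late cells, against 527 and 896 before induction, without overlap (log2 change 0.74 ± 0.40 SE, adjusted p = 0.286). The ligand Tgfb3 had -157, -31 and 223 in late cells, against 128 and 418 before induction, and passed no test.

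Among the TGF-beta and BMP genes of the symbol rule, no receptor, Smad or Tgif corepressor passed a test. Acvrl1 (ALK1), a type I receptor, had 169, 318 and 200 in late cells, against 421 and 591 before induction (log2 change -1.18 ± 0.41 SE, adjusted p = 0.0973), with no overlap. Acvr2a, an activin type II receptor, had 148, 269 and 303 in late cells, against 429, 424 and 317 in early cells (log2 change -0.75, adjusted p = 0.315). Smad4, the common partner, had 114, 345 and 272 in late cells, against 418, 423 and 459 in early cells (log2 change -0.89, adjusted p = 0.138). These receptors and Smad4 were lower late with separate stages, but by less than limma could tell from the spread. The BMP receptor Bmpr1a lay between 99 and 455 and Smad2 between -236 and 359. Tgif1, a homeobox corepressor of Smads, had 81, 315 and 143 in late cells and 154, 41 and 87 in early cells, against 382 and 404 before induction. It missed the threshold both late (adjusted p = 0.0648) and early against before (adjusted p = 0.154). Tgif2 had 126, 343 and 316 in late cells, against 1170 and 180 before induction, so the stages overlapped. A second Tgif2 probe set had 194, 286 and 219 in late cells, against 384 and 444 before induction. Its stages did not overlap, and it missed the threshold (log2 change -0.84, adjusted p = 0.0897, limma).

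Of the genes counted under Wnt signalling by symbol, Ctnnb1, Dvl2 and Ctnna1 fell late against before induction and none was called higher. The fall of Dvl2 was fixed by the filter, and Ctnna1 is an adhesion protein, as described below. Ctnnb1 encodes beta-catenin, the transcriptional effector that also links cadherins to the cytoskeleton. Its intensity was 452 and 367 in preconfluent and confluent cells, 241, 222 and 238 at 6, 12 and 24 hours, 198 and 98 on days 2 and 3, and 135, 76 and 175 on days 4, 7 and 28. Every value after induction lay below both before it, and 3 of the last 4 were at or below the floor. Ctnnb1 was at least 2.75-fold lower late than before (log2 change -1.46 ± 0.29 SE, adjusted p = 0.0102, limma), and the early log2 change was -0.80 (adjusted p = 0.389). Without the preconfluent sample the late call was lost (adjusted p = 0.0787), and so was the trend (0.0712, against 0.0175 with all samples).

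Dvl2 encodes a Dishevelled protein, which relays the signal of Frizzled receptors. It had 350 and 327 in preconfluent and confluent cells and at most 63 in the other 8 samples, all below the floor. It passed the filter only through the 2 samples before induction, where it was high, so it had to differ if tested, and it was not tested under the filter of 5 samples. The difference was at least 2.49-fold late against before (log2 change -1.31 ± 0.25 SE, adjusted p = 0.00887, limma). The early fold had the same bound and missed the threshold (adjusted p = 0.0698). Without the preconfluent sample the late call was lost (adjusted p = 0.0544). Its trend (adjusted p = 0.0272) was lost without the preconfluent (0.166), confluent (0.0666), 12 hour (0.0548) or day 2 sample (0.055). Its paralogues did not show this: Dvl1 had 886, 710 and 1000 in late cells, against 586 and 768 before induction (log2 change 0.35, adjusted p = 0.515), and Dvl3 had 515, 189 and 318, against 491 and 385.

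Ctnna1, the alpha-catenin of cadherin junctions, and Ctnnd1 (p120-catenin), which binds cadherin tails, are adhesion proteins that share the catenin name. Ctnna1 had 4250 and 4610 in preconfluent and confluent cells, 2920, 2300 and 2570 at 6, 12 and 24 hours, 2140 and 1930 on days 2 and 3, and 1960, 2360 and 1790 on days 4, 7 and 28. Every sample after induction lay below both before it. Ctnna1 was 2.19-fold lower late than before (log2 change -1.13 ± 0.28 SE, adjusted p = 0.0251, limma), and 3 samples each ended the call when left out: preconfluent (0.0878), confluent (0.097) and day 28 (0.0556). Ctnnd1 had 1630, 1180 and 989 in late cells and 1250, 917 and 1080 in early cells, against 1830 and 1530 before induction, and passed no test. Ctnnd2 lay between 166 and 391.

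Sfrp2, a secreted protein that binds Wnts, had 522 and 1010 in preconfluent and confluent cells, 535, 390 and 239 at 6, 12 and 24 hours, 40 and 124 on days 2 and 3, and 87, 140 and 456 on days 4, 7 and 28. It changed along the course (adjusted p = 0.00387, limma), with its lowest value on day 2, and that call was lost only with the higher floor (0.101). Late against before its values did not overlap and the bound was 3.14-fold lower, but the adjusted p was 0.0572. Of the Wnt ligands, Wnt10b, known to block fat cell formation in this line, passed the limit only at 6 hours (196) and on day 3 (202). Wnt4 had 680 at 12 hours, against at most 157 elsewhere. A second tested Wnt4 probe set had 372 at 12 hours and 392 at 24 hours, and values below 0 in all other samples. At 24 hours the probe set used had 118. Wnt1 lay between -92 and 507, Wnt3 between 114 and 388, and Wnt10a between 115 and 404, and no Wnt gene passed a test.

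Tcf7l1 (TCF3) is a DNA-binding partner of beta-catenin that mostly represses transcription. Its intensity was 2040 and 4730 in preconfluent and confluent cells, 3490, 4010 and 4700 at 6, 12 and 24 hours, 4770 and 4260 on days 2 and 3, and 3920, 3430 and 2570 on days 4, 7 and 28. It was lowest in preconfluent cells and on day 28, and no test called it (late against before, log2 change 0.07, adjusted p = 0.939). The receptor Fzd8 had 1040, 1240 and 1060 in late cells, against 920 and 970 before induction (log2 change 0.23, adjusted p = 0.396, limma). The values did not overlap but differed little. A second Fzd8 probe set had 12, 300 and 212 in late cells, against -12 and 244 before induction, with overlap. The Fzd8 probe sets differed in sign early against before. Fzd7 lay between 86 and 435 and Fzd9 between 22 and 410. Axin1, the scaffold of the degradation complex, had 420, 710 and 279 in late cells, against 683 and 584 before induction (log2 change -0.53, adjusted p = 0.436).

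**Figure D3:**
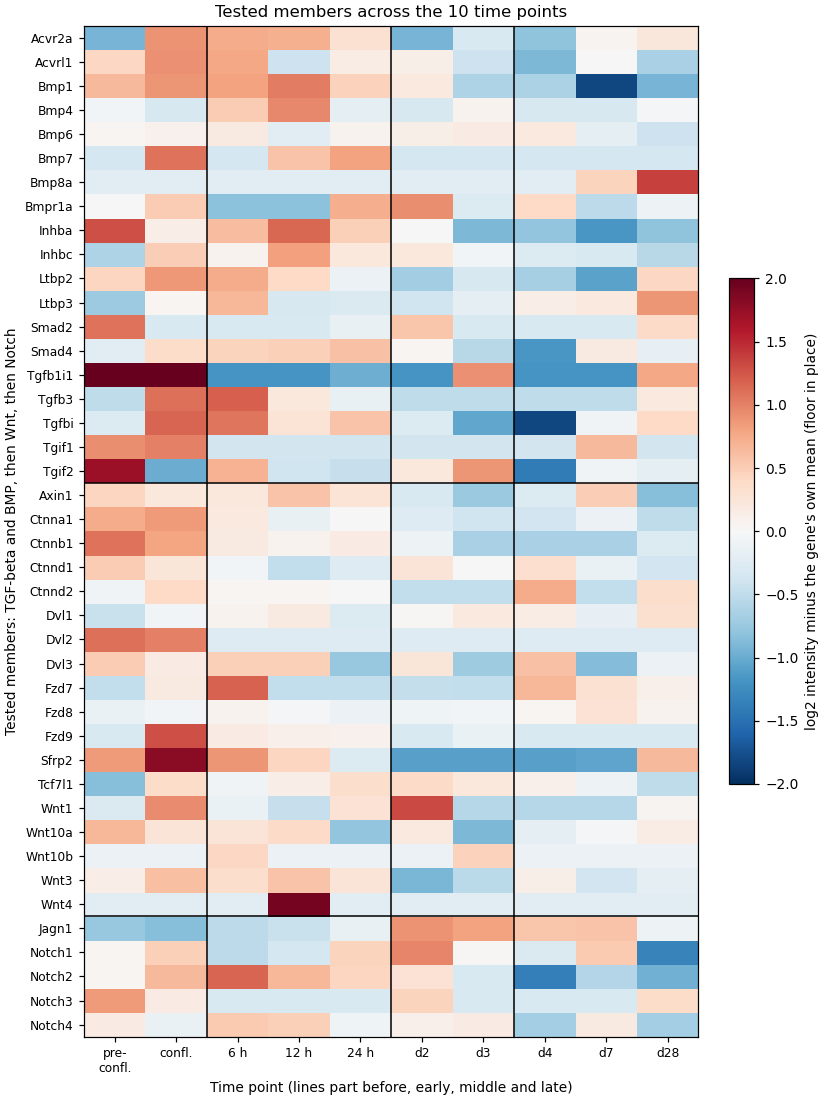
Log2 intensity of the 42 tested genes at each time point after the floor, with each gene's mean over the 10 samples subtracted, ordered by pathway. Ctnna1, Ctnnb1, Dvl2 and Tgfb1i1 are highest in the 2 samples before induction. Bmp1, Inhba and Notch2 vary through 24 hours and have all their late values below every value up to then.

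Notch2 fell and Jagn1 rose among the 5 Notch or Jag genes. Notch2 encodes a Notch receptor. Its probe set with the highest mean had 1210 and 1830 in preconfluent and confluent cells, 2620, 1850 and 1580 at 6, 12 and 24 hours, 1440 and 948 on days 2 and 3, and 454, 780 and 601 on days 4, 7 and 28. The late values lay below all earlier ones. The level was 3.30-fold lower late than early (log2 change -1.72 ± 0.33 SE, adjusted p = 0.00708, limma) and 2.49-fold lower late than before (log2 change -1.32 ± 0.37 SE, adjusted p = 0.0431). The other 3 Notch2 probe sets did not show this. Their log2 changes late against before were 0.13, -0.82 and -0.15 (adjusted p = 0.891, 0.37 and 0.698), and late against early -0.42, -1.02 and -0.04 (adjusted p = 0.506, 0.186 and 0.91). The fall of Notch2 was called on 1 of 4 probe sets, and their signs differed late against before. In the 16 alternatives that kept the probe set used, the call against the time before induction was lost in 11 (adjusted p 0.0292 to 0.223) and the call against the early hours in 0 (adjusted p 0.00341 to 0.0398).

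**Figure D4:**
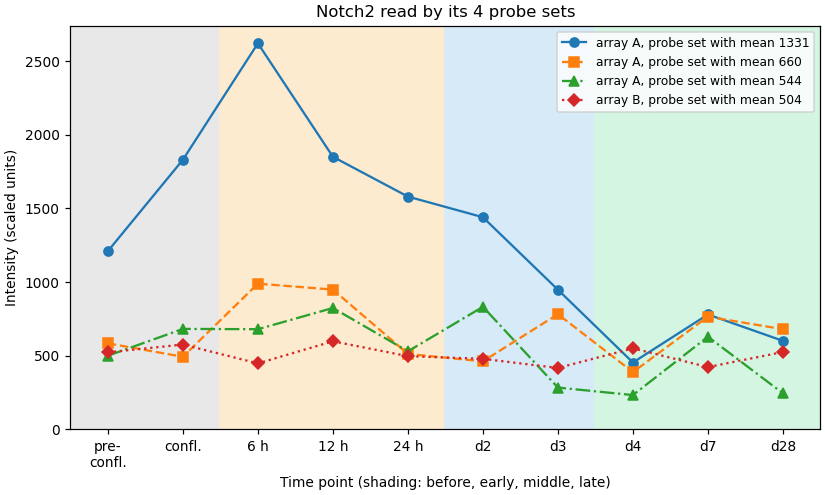
Intensity of the 4 Notch2 probe sets at each time point, 3 on array A and 1 on array B. The probe set used here has its highest value, 2620, at 6 hours, 948 on day 3 and its lowest, 454, on day 4, and the one on array B stays between 417 and 598.

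Jagn1 encodes Jagunal, a protein of the endoplasmic reticulum and no Notch ligand; no Jagged gene was among the members. It had 1200 and 1130 in preconfluent and confluent cells, 1410, 1490 and 1840 at 6, 12 and 24 hours, 3770 and 3550 on days 2 and 3, and 2990, 3020 and 1900 on days 4, 7 and 28. All values after induction exceeded both before it, with the highest on day 2. Jagn1 was 2.21-fold higher late than before (log2 change 1.15 ± 0.31 SE, adjusted p = 0.0359, limma), a call lost in 8 of 16 alternatives (adjusted p 0.0157 to 0.126). Its trend held in all 17 (adjusted p 0.00201 to 0.0376). Notch1 had 322, 566 and 148 in late cells, against 403 and 546 before induction (log2 change -0.62, adjusted p = 0.535). Notch3 had 103, 81 and 152 in early cells, against 348 and 217 before induction (log2 change -0.82, adjusted p = 0.446), and Notch4 lay between 94 and 313.

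The start regions of 5 of the genes that changed are shown because their values can be set beside motifs of the pathways concerned. They are the 250 bases before the RefSeq gene start in GRCm38.p6, on the plus strand, at chr9:120933150-120933399 (Ctnnb1), chr11:70000342-70000591 (Dvl2), chr13:16011601-16011850 (Inhba), chr3:98013288-98013537 (Notch2) and chr6:113442267-113442516 (Jagn1). Capitals mark matches, on either strand, to the Smad element CAGAC, the TCF/LEF site CTTTGA, the RBPJ site GTGGGAA or the AP-1 site TGANTCA.
Ctnnb1: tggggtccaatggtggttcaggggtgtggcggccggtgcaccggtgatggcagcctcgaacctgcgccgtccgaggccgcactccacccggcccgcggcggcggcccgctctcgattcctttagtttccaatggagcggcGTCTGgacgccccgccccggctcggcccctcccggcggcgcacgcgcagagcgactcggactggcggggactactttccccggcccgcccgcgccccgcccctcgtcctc
Dvl2: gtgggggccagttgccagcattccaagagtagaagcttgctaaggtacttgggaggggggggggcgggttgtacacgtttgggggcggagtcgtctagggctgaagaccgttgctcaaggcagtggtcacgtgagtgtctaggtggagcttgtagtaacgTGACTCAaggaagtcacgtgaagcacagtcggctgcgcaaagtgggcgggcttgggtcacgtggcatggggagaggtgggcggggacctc
Inhba: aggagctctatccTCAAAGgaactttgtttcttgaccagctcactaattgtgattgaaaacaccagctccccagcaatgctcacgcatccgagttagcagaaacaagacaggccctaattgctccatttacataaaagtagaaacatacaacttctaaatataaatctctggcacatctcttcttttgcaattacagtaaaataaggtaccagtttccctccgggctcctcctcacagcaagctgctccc
Notch2: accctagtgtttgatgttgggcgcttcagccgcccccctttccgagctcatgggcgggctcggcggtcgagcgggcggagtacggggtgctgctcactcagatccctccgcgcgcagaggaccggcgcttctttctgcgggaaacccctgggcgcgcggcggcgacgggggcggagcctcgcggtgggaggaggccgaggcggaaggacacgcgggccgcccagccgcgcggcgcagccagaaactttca
Jagn1: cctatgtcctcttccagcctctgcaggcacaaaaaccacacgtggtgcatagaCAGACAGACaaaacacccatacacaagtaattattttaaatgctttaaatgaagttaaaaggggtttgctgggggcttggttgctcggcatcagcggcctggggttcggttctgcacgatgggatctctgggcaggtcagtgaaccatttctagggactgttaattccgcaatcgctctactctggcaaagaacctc
The Ctnnb1 window holds 1 CAGAC match on the reverse strand and that of Jagn1 holds 2 that overlap, where 42.2% of the 32851 windows hold at least 1. The Dvl2 window holds 1 TGANTCA match (6.75% of all windows) and the Inhba window 1 CTTTGA match on the reverse strand (13.8%). Notch2 has none of the 4, and GTGGGAA, found in 5.42% of windows, is in none of the 5. The start used for Inhba lies 7595 bases inside the annotated gene, and Ctnnb1 and Jagn1 have 2 starts each in the table, of which the first was used. Guanine and cytosine make up 74.8% of the Ctnnb1 window, 72.0% of that of Notch2, 60.8% of Dvl2, 48.8% of Jagn1 and 43.2% of Inhba, with a median of 52.4% over all windows. A match is a description of letters, and no binding was measured here.

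The same pathways hold genes with other symbols, and a list of 57 of them on the arrays was read, of which 40 were tested. The list was chosen with earlier results of these data known, and it shares Dlk1 with the fibroblast markers. Its percentages beside those of all probe sets are therefore a description and no independent support. Late against before induction, 10 fell and none rose (25% lower, against 5.08% of all probe sets), with a median log2 change of -0.64. Late against early, 13 fell and none rose (32.5%, against 6.55%), and at an unadjusted p under 0.05, 16 were lower and 0 higher late against before (13.9% and 11.2% of all probe sets), and 16 lower and 1 higher late against early (14.8% and 13.1%). Early against before none was called in either direction, with 6 lower and 3 higher at an unadjusted p under 0.05 (5.22% and 4.01% of all probe sets). A trend was called for 14 (35%, against 16.8% of all probe sets), Lef1 among them. With a filter of 5 samples it was called for 13, and for 1189 probe sets in all. The lowest of the 10 values lay on day 4, 7 or 28 for 30 of the 40 (75%, against 41.8% of all probe sets). Without the confluent sample, which leaves 1 sample before induction, fewer were called lower late against before, and fewer probe sets were called in all. Read from second probe sets where a gene has several, 6 were lower and 1 higher late against before, and 8 were lower late against early.

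**Figure D5:**
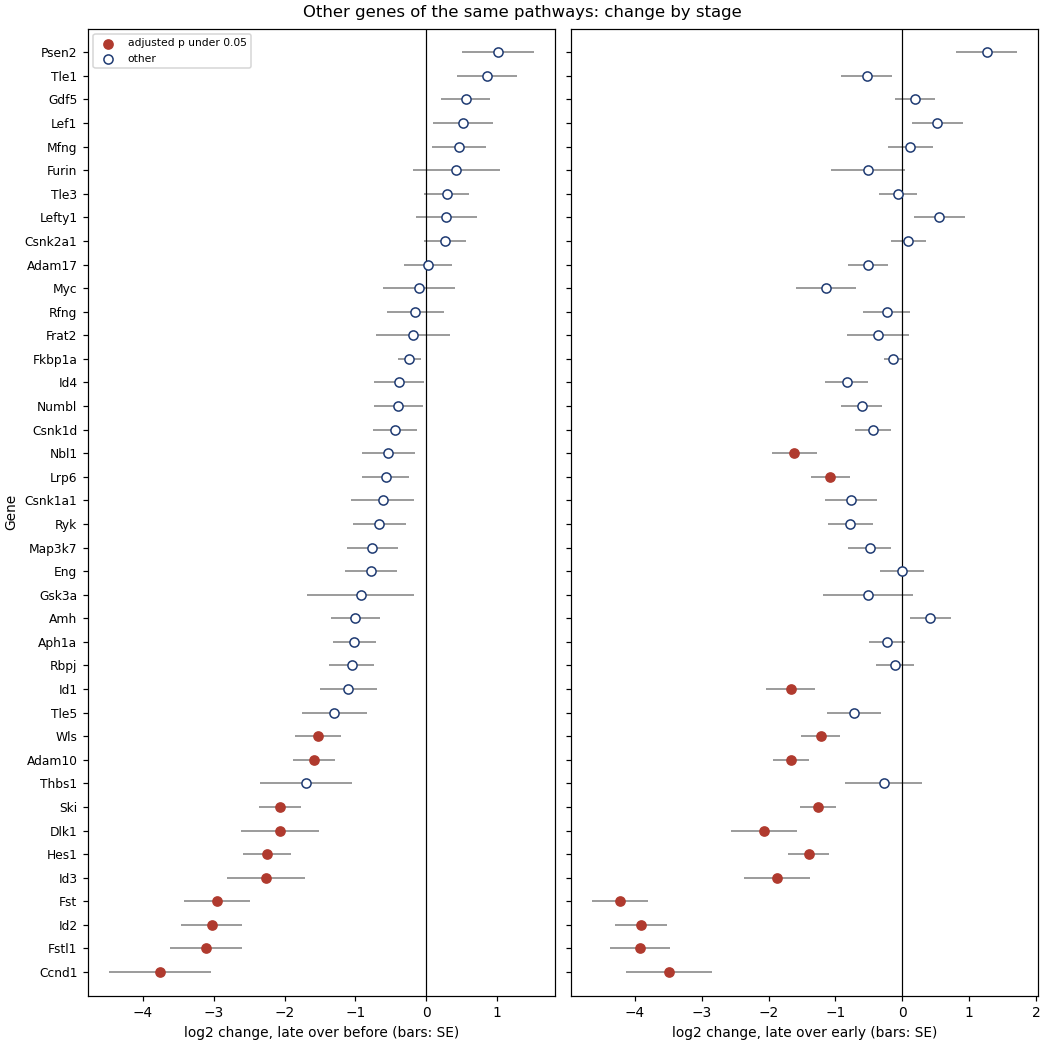
Log2 change of the 40 tested pathway genes outside the symbol rule, late over before induction (left) and late over early (right), with standard errors as bars and genes at an adjusted p under 0.05 filled. All filled points lie below 0 on both sides.

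Of 15 tested TGF-beta and BMP genes outside the symbol rule, 5 fell late against before and 7 late against early. Fst (follistatin), which binds activin, had 1320 and 1670 in preconfluent and confluent cells, 5250, 3600 and 2390 at 6, 12 and 24 hours, 1000 and 400 on days 2 and 3, and 285, 108 and 158 on days 4, 7 and 28. Its highest value was at 6 hours, and it was at least 18.6-fold lower late than early (adjusted p = 0.000869, limma) and at least 7.49-fold lower late than before (adjusted p = 0.00638, and 0.0521 without the confluent sample). Fstl1, a secreted follistatin-like protein, had 505, 239 and 590 in late cells, against 6310, 7070 and 5530 in early cells (log2 change -3.92, adjusted p = 0.000726). Id2, an inhibitor of helix-loop-helix factors and a known target of BMP signalling, had 157, 83 and 139 in late cells, against 1990 and 823 before induction (at least 8.19-fold lower, adjusted p = 0.00417). Late against before, Id3 was at least 4.59-fold lower (adjusted p = 0.0257) and the Smad corepressor Ski at least 4.18-fold lower (adjusted p = 0.00461). The Id3 call was lost in 5 of 16 alternatives and that of Ski in 2 of 17, a second probe set among them. Late against early, Id1 fell by 1.67 on the log2 scale (adjusted p = 0.0196); against the time before induction it missed the threshold (adjusted p = 0.131), and the call was lost in 6 of 17 alternatives.

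On the Wnt side, Wls, the carrier that takes Wnt proteins to the cell surface, fell to 171, 199 and 209 in late cells, against 412 and 752 before induction (log2 change -1.53, adjusted p = 0.013, limma). Ccnd1 (cyclin D1), a cell cycle gene and known Wnt target, was at least 11.5-fold lower late than before (adjusted p = 0.0131, limma). It had 169, 95 and 571 on days 4, 7 and 28, against 4230 and 2640 before induction. The Ccnd1 probe set is of a type marked as shared by a gene family. The coreceptor Lrp6 had 496, 487 and 475 in late cells, against 816, 1060 and 1240 in early cells (log2 change -1.07, adjusted p = 0.0355). Lef1, a partner of beta-catenin on DNA, had 406, 519 and 460 on days 2, 3 and 4 and at most 49, below the floor, in every other sample. It met the filter only through days 2, 3 and 4, where it was high, so it had to change along the course if tested. It was not tested under the filter of 5 samples. Its trend had an adjusted p of 0.0276 (limma), a call lost in 8 of 16 alternatives. That of Lrp6 was lost in 6 of 16, that of Ccnd1 in 3 of 16 and that of Wls in 2 of 16.

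Of the Notch genes outside the rule, Hes1, a repressor and classical Notch target, had 100, 231 and -66 in late cells, against 666 and 895 before induction (at least 4.66-fold lower, adjusted p = 0.00264, limma). Adam10, a protease that cuts Notch, had 240, 248 and 230 in late cells, against 630 and 819 before induction (log2 change -1.59, adjusted p = 0.00806), and a second probe set did not pass (adjusted p = 0.669). Dlk1, a preadipocyte protein related to Notch ligands and also counted among the fibroblast markers above, fell by 2.07 on the log2 scale (adjusted p = 0.0366), a call lost in 10 of 16 alternatives. Rbpj, the DNA-binding partner of Notch, had 439, 866 and 916 in late cells, against 1590 and 1340 before induction, and missed the threshold (adjusted p = 0.0715).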

How the data were processed

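Linear intensities per probe set were deposited by the authors for 2 Affymetrix array types, with RNA extraction and labelling from 10 µg total RNA per the labels' protocols. Which program computed them is not given in the sources used here. Gene names came from the platform annotation. The authors' scaling was kept. Values below the floor, the 10th percentile of an array type with its sign turned, were set to it, log2 was taken, and 110 control probe sets were left out. limma 3.58.1 in R 4.3.3 fitted 4 stage means per probe set to the 10 time points, each array type apart, with Benjamini-Hochberg adjustment over the 7582 tested probe sets together; the trend was an F test of a natural spline with 3 degrees of freedom. Folds are ratios of geometric stage means where neither stage has a sample at the floor. Where only the dimmer stage has one, the fold is given as "at least". It is then the smaller of the ratios of geometric and of arithmetic stage means, so it can lie below the printed log2 change. The test was tried on simulated data first. No time point had a replicate. The p-value of a stage contrast therefore weighs a difference against the scatter of time points within a stage, real change included. That of the trend weighs the fitted curve against the scatter of the time points around it. Precision is limited by the number of arrays. The members and lists were chosen with earlier results of these data known. Named with full statistics were members called in at least 1 test; with values, those among the 6 largest changes per direction and contrast without overlap between stages, and those with a mean above 2 times the floor. Alternatives changed the floor, filter, scaling, variance model, probe set or spline, or left out each time point.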

Additional observations from a re-analysis of the deposited data

How the results depend on the processing

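Late against before induction, the number of genes of the symbol rule called lower lay between 1 and 7 and higher between 0 and 1 when each time point was left out in turn, with 317 to 766 probe sets called in all. Early against before these were 0 to 1 lower, 0 to 0 higher and 0 to 46 in all. Late against early they were 2 to 3 lower, 0 to 1 higher and 489 to 992 in all, and for the trend 8 to 10 genes and 915 to 1255 probe sets. Of the other pathway genes, 4 to 10 were lower and 0 to 2 higher late against before, 0 to 1 lower and 0 to 0 higher early against before, 9 to 13 lower and 0 to 1 higher late against early, and 10 to 16 had a trend. With no filter, late against before gave 3 genes lower and 0 higher, with 412 probe sets called, 15 early against before, 514 late against early, and for the trend 6 genes and 632 probe sets; of the other pathway genes 6 were lower late against early and 7 had a trend. With a floor of 2 times the main one, early against before gave 4 genes lower and 65 probe sets, and the trend 6 genes; of the other pathway genes 1 was higher early against before and 8 had a trend. With arcsinh in place of the floor, early against before gave 0 genes lower and 14 probe sets, and late against early 1 gene higher. A filter of 5 samples gave 0 genes lower and 11 probe sets early against before, quantile normalization 0 genes lower, and a variance trend with intensity 2. With second probe sets, 6 other pathway genes were lower and 1 higher late against before, and 8 lower late against early. Read from its second-brightest probe set, Notch2 changed by 0.13 late against before, the other way from the main result. The cause of these shifts was not tested, except that with no filter more probe sets enter the adjustment and each left-out time point leaves fewer samples. No paired analysis was possible because the labels carry no replicate numbers and each time point has 1 sample per array type. Between 43.4% and 55.4% of an array's values lay at or below the floor, which limits what can be said of dim genes, and folds of such genes are bounds.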

Other observations

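Several genes had a higher intensity on day 28 than on day 7. The values, each from 1 sample, were 1600 and 992 for Ltbp3, 1090 and 389 for Ltbp2, 761 and 552 for Tgfbi, 528 and -630 for Tgfb1i1, 456 and 140 for Sfrp2, 411 and 217 for Bmp8a and 223 and -31 for Tgfb3. These genes were picked after their values were seen, and the difference was not tested. The preadipocyte or fibroblast markers summed to 52113 on day 28 and 29003 on day 7, with Col1a1 at 19100 and 5520, Thy1 at 4240 and 674 and Dlk1 at 3140 and 685. The 7 skeletal muscle markers summed to 8606 on day 28 and 4907 on day 7. Of these, Mb had 4790 on day 28 and 651 on day 7, Des 456 and 321 and Myog 901 and 540, and Ckm had 2430 on day 28 and 2870 on day 7 and Myod1 29 and 423; Acta1 and Tnnt3 lay below the floor in every sample. Adipocyte markers summed to 113760 on day 28 and 101950 on day 7, but did not move together. Fabp4 had 25900 on day 28 and 12700 on day 7, and Adipoq and Lipe were also higher on day 28. Retn was lower, with 2550 on day 28 and 7050 on day 7, as were Lpl, Cebpa, Slc2a4 and Pparg. Jagn1 and Tcf7l1 were lower on day 28, with 1900 and 2570, against 3020 and 3430 on day 7.

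Confluent and preconfluent cells, 1 sample each, also differed in several genes. Tcf7l1 had 4730 in confluent and 2040 in preconfluent cells, Tgfbi 1300 and 478, Sfrp2 1010 and 522, Acvr2a 482 and 131, and Tgfb3 418 and 128. Inhba had 850 in confluent and 1890 in preconfluent cells, and Tgif2 180 and 1170. The second Tgif2 probe set did not show this, with 444 in confluent and 384 in preconfluent cells. These differences have no replicate check.

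The ratio of the 3' to the 5' Gapdh control probe sets on array A was 0.992 to 1.14 in late samples, 1.27 to 1.6 in the middle, 1.43 to 1.61 early and 0.986 to 1.33 before induction. For beta-actin on array A it was 1.29 to 1.41 late, 1.41 to 1.72 in the middle, 1.39 to 1.45 early and 1.05 to 1.48 before induction. On array B, the Gapdh ratio was 0.737 to 0.773 late, 0.762 to 0.765 in the middle, 0.722 to 0.773 early and 0.788 to 0.815 before induction. The beta-actin ratio there was 0.955 to 1.05 late, 1.06 to 1.08 in the middle, 0.801 to 1.11 early and 0.824 to 0.872 before induction. The part of RNA quality in the members' values was not tested.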
